A study of Mus musculus with 12 samples.

Results

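The interferon regulatory factors (IRFs) and Stat2 are transcription factors of the interferon system. The 8 genes described here were the rows of the count table with the symbols Irf1, Irf2, Irf3, Irf5, Irf7, Irf8, Irf9 and Stat2. They were 8 of the 35013 genes listed and 8 of the 13502 genes with enough counts to be tested. Poly-A RNA had been sequenced from 12 cultures of KP1 cells, a mouse tumour line whose cell type is labelled LUAD, the usual short form of lung adenocarcinoma. The 4 groups, of 3 biological replicates each, were cells with an empty vector (EV) given DMSO, cells overexpressing NRF2 (labelled NRF2 OE) given DMSO, empty vector cells given 5 nM romidepsin, and NRF2-overexpressing cells given 5 nM romidepsin, all for 16 h. Romidepsin inhibits class I histone deacetylases, and NRF2, encoded by Nfe2l2, is the transcription factor that drives antioxidant genes. All groups came from 1 parental line, and neither the overexpression vector nor the number of independent transductions is given in the sources used here. The p-values thus cover only how much the cultures of each line varied.

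Nucleic acid sensors in the cytosol and in endosomes activate IRF3 and IRF7, which switch on the genes of type I interferons. Secreted interferon signals through its receptors and the Janus kinases, and STAT2 and IRF9 are subunits of the complex ISGF3, which then binds the interferon-stimulated response element (ISRE) of target genes. IRF1 and IRF8 drive genes of antigen presentation and of the interferon gamma response, IRF2 competes with IRF1 for its sites, and IRF5 acts below the Toll-like receptors, above all in myeloid cells. IRF7, IRF9 and STAT2 are themselves products of interferon-stimulated genes.

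The groups followed their labels. Nfe2l2 was at 305 ± 40.7 CPM (SD, n = 3) in the NRF2 group and 102 ± 1.37 CPM in the EV group with DMSO, and at 349 ± 13.8 and 96.3 ± 2.90 CPM with romidepsin. CPM is the usual depth-scaled count, here with TMM factors in the library size. Library totals ran from 16842824 to 28003010 estimated counts, so that a count of 3 in 1 library stood for 0.105 to 0.182 CPM. The libraries kept epithelial keratin and Cdh1 transcripts, with 13 lung epithelial markers summing to between 3748 and 9919 CPM, while the lung-defining Nkx2-1, Sftpc, Sftpb, Napsa and Scgb1a1 were at or near 0. Replicate 3 of the NRF2 group with DMSO stood apart from its replicates. Its root mean square distance from its group was 0.304 on the log2 scale, against 0.138 to 0.193 in the other 11 libraries, and it had the highest share of mitochondrial counts, 7.30%. Some values that rest on it, such as the Irf2 and Irf9 differences with DMSO, are given with and without it.

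Irf7, Irf5, Irf8 and Stat2 were the 4 genes that rose most with romidepsin, and the sequences before their start sites are shown so that the letters can be read beside the expression values. They are from RefSeq on GRCm38.p6, run 5′ to 3′ along the gene's own strand, and stop where an annotated exon begins. Capitals mark matches to the ISRE letters GAAANNGAAA, to the gamma-activated site (GAS) letters TTCNNNGAA, or to the NRF2-type antioxidant response element (ARE) letters TGACNNNGC, on either strand.
Irf7 promoter (chr7:141266482-141266674, minus strand): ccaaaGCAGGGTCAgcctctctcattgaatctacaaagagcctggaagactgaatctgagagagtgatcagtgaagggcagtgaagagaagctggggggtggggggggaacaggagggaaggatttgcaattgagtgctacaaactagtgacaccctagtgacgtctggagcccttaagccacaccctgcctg
Irf5 promoter (chr6:29526375-29526624, plus strand): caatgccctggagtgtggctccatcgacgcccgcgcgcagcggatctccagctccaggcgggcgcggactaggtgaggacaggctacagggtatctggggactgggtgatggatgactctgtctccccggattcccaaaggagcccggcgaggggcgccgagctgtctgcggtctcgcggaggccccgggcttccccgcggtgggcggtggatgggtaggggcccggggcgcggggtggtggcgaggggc
Irf8 promoter (chr8:120736108-120736357, plus strand): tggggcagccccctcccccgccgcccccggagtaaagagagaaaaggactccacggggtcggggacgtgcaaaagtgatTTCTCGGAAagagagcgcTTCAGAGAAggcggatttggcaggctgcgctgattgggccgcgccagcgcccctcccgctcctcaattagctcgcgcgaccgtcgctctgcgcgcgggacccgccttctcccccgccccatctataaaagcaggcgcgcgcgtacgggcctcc
Stat2 promoter (chr10:128270248-128270497, plus strand): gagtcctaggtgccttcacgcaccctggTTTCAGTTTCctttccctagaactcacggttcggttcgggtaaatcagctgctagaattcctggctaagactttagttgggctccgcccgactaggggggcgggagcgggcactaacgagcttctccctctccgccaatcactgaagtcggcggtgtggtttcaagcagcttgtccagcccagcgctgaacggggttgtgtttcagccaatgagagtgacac

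The motif search covered 300 bases per promoter, from 250 before to 50 after the start. The Stat2 window held 1 ISRE match, at position -222 from the start and on the opposite strand. RefSeq gives a second start for Irf1, Irf8 and Irf9. The Irf8 window shown held a pair of GAS matches, at positions -171 and -153, and the window of its second start held 1 ARE match, at position -25. The Irf7 window held 1 ARE match, at position -245 on the opposite strand, and no ISRE or GAS letters. No match to any of the 3 motifs lay in the windows of Irf3, Irf5 or Irf9, or in that of the second Irf1 start. Among the genes with small changes, Irf1 had a GAS match at position -90, and Irf2 had an ISRE match at position -241 with a GAS match at position -224. These 3 matches and the ARE match of the second Irf8 start are shown with the bases around them, each with its own motif in capitals. The 2 Irf2 stretches overlap, and the first ends within the GAS match.
Irf1 GAS match (chr11:53769914-53769943, plus strand): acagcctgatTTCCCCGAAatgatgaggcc
Irf2 ISRE match (chr8:46739495-46739524, plus strand): tggggaagtGAAAATGAAAttgacttttcc
Irf2 GAS match (chr8:46739511-46739540, plus strand): aaattgacttTTCCGAGAAatgatgaaagc
Irf8 ARE match, second start (chr8:120738604-120738633, plus strand): gactggagtcTGACTCCGCtttagccctcg

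Across 32851 RefSeq promoters of the same length, 3.44% held the ISRE letters, 8.3% the GAS letters and 12.4% the ARE letters. A match describes letters only, and a window without one says nothing about binding. CpG counts also differed among these promoters. The Irf5 window had 35 CpG dinucleotides, the 2 Irf8 windows 38 and 8, and the Irf7 window 7, against a median of 7 over all promoters (quartiles 3 and 20). The 2 Irf1 windows had 32 and 43, those of Irf2, Irf3 and Stat2 had 19, 18 and 22, and the 2 Irf9 windows 9 and 1. The windows of the 4 members that rose most thus ran from 7 to 38.

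With DMSO the members stood at very different levels. Compared per kilobase of merged exon, Irf3 was the highest in EV cells, at 13.8 ± 0.401 CPM per kb (SD, n = 3). Irf1 and Irf2 followed at 6.94 ± 0.497 and 6.07 ± 0.0281. Irf9 and Stat2, the ISGF3 subunits, were lower, at 1.66 ± 0.0226 and 1.08 ± 0.177. Irf5, Irf7 and Irf8 were at 0.0585, 0.0283 and 0.0129 CPM per kb, which rests on 11, 7 and 5 estimated counts in the 3 libraries together. Neighbours in this order did not overlap between libraries down to Stat2. The ranges of Irf5, Irf7 and Irf8 met or overlapped, so that their order was not resolved at this depth. Merged exons cover every annotated transcript, and for Irf7 they span the whole gene, 3776 bases, so that its level per kilobase is a low estimate. NRF2 cells with DMSO had the same order of means, from 13.4 ± 0.887 CPM per kb for Irf3 down to 0.0184 for Irf8, except that the ranges of Irf1 and Irf2 overlapped there (6.13 ± 0.268 and 5.87 ± 1.01). With romidepsin the order in EV cells was Irf3 (15.1 ± 0.700), Irf1 (7.98 ± 0.278), Irf2 (5.00 ± 0.198), Stat2 (3.60 ± 0.320), Irf7 (2.30 ± 0.0488), Irf9 (1.57 ± 0.228), Irf5 (0.699 ± 0.159) and Irf8 (0.0759 ± 0.0220 CPM per kb). NRF2 cells with romidepsin had that order too, from 13.6 ± 0.366 CPM per kb for Irf3 to 0.162 ± 0.0217 for Irf8. No neighbours overlapped in either romidepsin group, and Stat2 and Irf7 had both moved above Irf9.

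**Figure D1:**
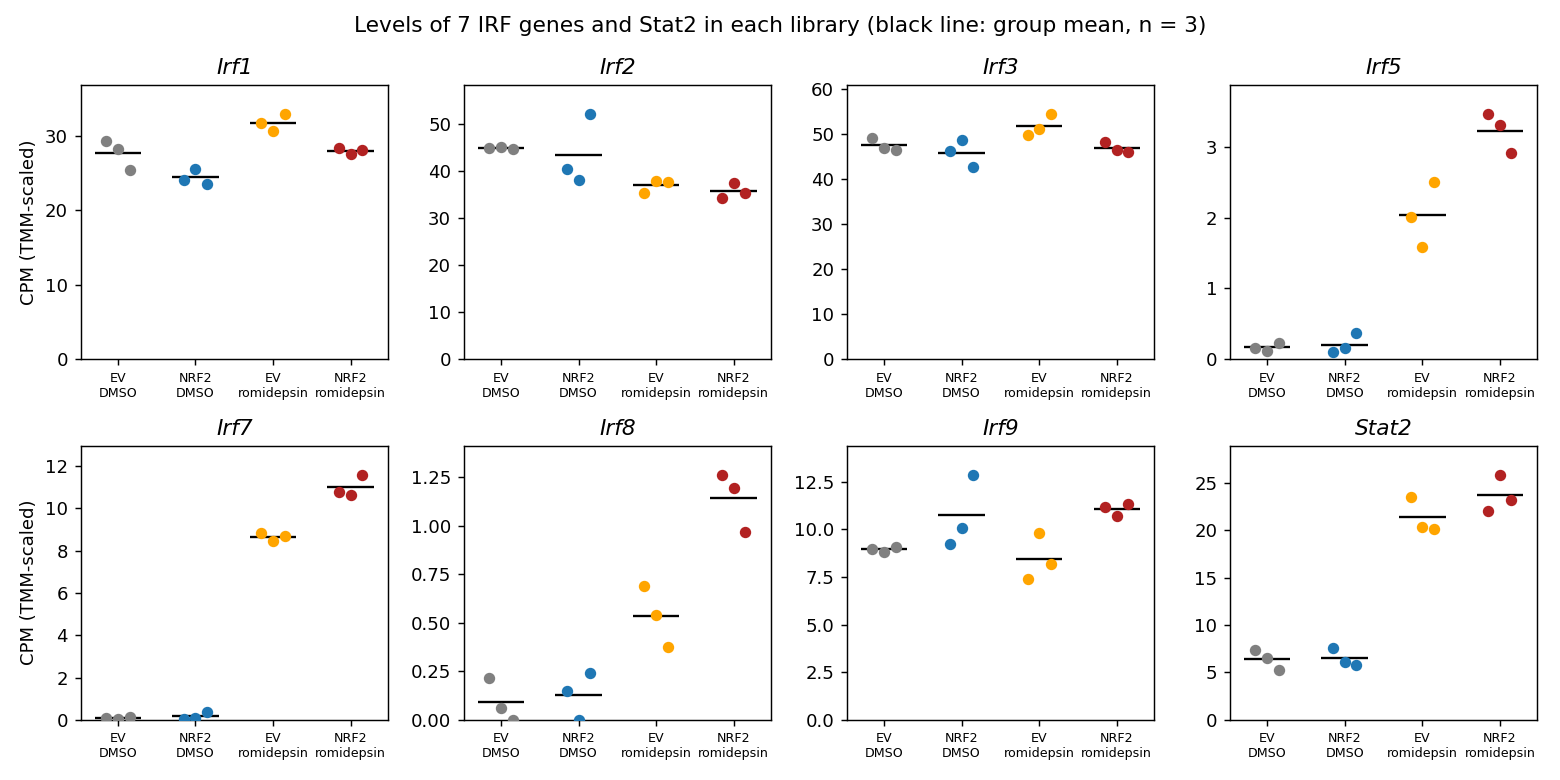
Level of each member in each library, in TMM-scaled CPM on a linear axis of its own that starts at 0, by group, with a black line at the mean of the 3 libraries. Irf7, Irf5 and Irf8 sat at or below 0.364 CPM in the 6 DMSO libraries, while Irf3, Irf2 and Irf1 stayed between 23.5 and 54.5 CPM in all 12 libraries.

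With romidepsin Irf7, Irf5, Irf8 and Stat2 rose in both lines, Irf1 rose slightly, Irf2 fell slightly, and Irf3 and Irf9 did not pass the test. Of the 5 members that had enough counts in the DMSO libraries alone to be tested, Stat2 and Irf1 rose and Irf2 fell in each line. Irf5, Irf7 and Irf8 passed the filter on low counts through the romidepsin libraries alone, so their rise was partly fixed by the filter and their calls add no support. Changes with romidepsin were common. By edgeR's quasi-likelihood test with Benjamini-Hochberg adjustment (called under 0.05), 76.5% of genes changed in EV cells, 39.1% higher and 37.4% lower. In NRF2 cells 79.8% changed, 40.5% higher and 39.3% lower. The median log2 fold change over all genes was 0.01 in each line, against 0.98 over the 8 members in EV cells and 1.03 in NRF2 cells. Both medians include the 3 members that the filter kept through their high group.

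Irf7, the IRF that amplifies type I interferon production, had the largest change. In EV cells it was at 0.107, 0.0592 and 0.154 CPM with DMSO, from 2, 1 and 4 estimated counts, and at 8.84, 8.47 and 8.68 CPM with romidepsin, from 180, 188 and 184. In NRF2 cells it was at 0.0491, 0.0761 and 0.364 CPM with DMSO and at 10.8, 10.7 and 11.6 CPM with romidepsin. All 6 romidepsin libraries thus lay far above all 6 DMSO libraries. Genes whose romidepsin libraries all lay above their DMSO libraries made up 41.1% of those tested in EV cells and 40.8% in NRF2 cells. The log2 fold change was 6.18 ± 0.28 (SE) in EV cells, a 72.6-fold difference (edgeR adjusted p = 9.8e-13), and 6.20 ± 0.25 in NRF2 cells, 73.7-fold (edgeR adjusted p = 2.1e-13). Irf7 ranked 135 of 13502 genes by size of rise in EV cells and 187 in NRF2 cells. Among the 1939 tested genes under 1 CPM in both DMSO groups, 66.4% rose in EV cells and 68.2% in NRF2 cells, with median log2 changes of 1.88 and 2.06, and Irf7 ranked 134 and 186. Irf7, Irf5 and Stat2 kept their romidepsin calls in both lines under every setting run, and so did Irf8 except that it was not tested in EV cells with the groups fitted alone, where the filter left it out. For Irf5, Irf7 and Irf8 the limit set by the filter applies to those calls too. On leaving out each library in turn, the Irf7 log2 change stayed between 5.95 and 6.59 in EV cells and between 5.80 and 7.27 in NRF2 cells. The gene lies at chr7:141262706-141266481 on the minus strand of GRCm38 and shares 45 exon bases with the antisense gene Phrf1, which was at 120 CPM with DMSO and 107 CPM with romidepsin in EV cells. The sources used here do not say whether the counting used strand, so reads from the shared bases of such a pair cannot be told apart.

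Irf5, which acts below Toll-like receptors, rose from near 0 as well. Its levels in EV cells were 0.160, 0.118 and 0.231 CPM with DMSO and 2.01, 1.58 and 2.50 CPM with romidepsin. In NRF2 cells they were 0.0983, 0.152 and 0.364 CPM with DMSO and 3.46, 3.30 and 2.91 CPM with romidepsin. No romidepsin library overlapped a DMSO library. The log2 change was 3.47 ± 0.36 in EV cells, 11.1-fold (edgeR adjusted p = 8.2e-08), and 4.04 ± 0.33 in NRF2 cells, 16.5-fold (edgeR adjusted p = 2.5e-09). On leaving out each library in turn it ran from 3.29 to 3.80 in EV cells and from 3.74 to 4.58 in NRF2 cells. Irf5, at chr6:29526625-29541871, shares 411 exon bases with the antisense gene Tnpo3, whose means were 225 CPM with DMSO and 177 CPM with romidepsin in EV cells. Those of NRF2 cells were 189 and 149 CPM.

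Irf8, best known from myeloid and B cells, was detected at the edge of the depth. With DMSO it had 4, 1 and 0 estimated counts in EV cells and 3, 0 and 4 in NRF2 cells. With romidepsin it had 14, 12 and 8 in EV cells (0.688, 0.541 and 0.378 CPM) and 27, 34 and 17 in NRF2 cells (1.26, 1.20 and 0.970 CPM). The romidepsin libraries again lay above every DMSO library, but the level stayed low. The log2 change was 2.62 ± 0.75 in EV cells (edgeR adjusted p = 0.0034) and 3.29 ± 0.60 in NRF2 cells (edgeR adjusted p = 5.7e-05). In EV cells the log2 change was 4.20 without EV DMSO replicate 1, which held 4 of the 5 DMSO counts, and 1.88 without replicate 3, which held none. In NRF2 cells it was 2.55 without NRF2 DMSO replicate 2 and 4.02 without replicate 3. Irf8 lies at chr8:120736358-120756694.

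Stat2, which with IRF9 forms part of ISGF3, was the member with the clearest rise from a level measured well with DMSO. In EV cells it was at 7.37, 6.51 and 5.28 CPM with DMSO and at 23.5, 20.3 and 20.2 CPM with romidepsin. In NRF2 cells it was at 7.57, 6.05 and 5.82 CPM with DMSO and at 22.0, 25.8 and 23.2 CPM with romidepsin. The lowest romidepsin library was therefore well above the highest DMSO library in each line. The log2 change was 1.75 ± 0.12 in EV cells, 3.37-fold (edgeR adjusted p = 4.6e-10), and 1.87 ± 0.12 in NRF2 cells, 3.65-fold (edgeR adjusted p = 1.1e-10). Irf9, its partner, had no such change. Irf9 was at 8.97, 8.82 and 9.06 CPM with DMSO and 7.37, 9.78 and 8.17 CPM with romidepsin in EV cells, and at 9.24, 10.1 and 12.8 CPM and 11.2, 10.7 and 11.4 CPM in NRF2 cells. The groups overlapped in both lines, with log2 changes of -0.08 ± 0.12 (edgeR adjusted p = 0.54) and 0.05 ± 0.12 (edgeR adjusted p = 0.68). Irf9, at chr14:55603571-55610030, shares 123 exon bases with Rnf31 on the same strand. Rnf31 was at 18.9 CPM in EV and 23.8 CPM in NRF2 cells with DMSO and at 20.2 and 28.5 CPM with romidepsin, so that its means, like those of Irf9, were higher in NRF2 cells. The part of shared reads in the Irf9 values was not tested. Stat2 lies at chr10:128270559-128292849.

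Irf1 and Irf2, the activator and its competitor, moved by small amounts in opposite directions. Irf1 was at 29.3, 28.1 and 25.4 CPM with DMSO and at 31.6, 30.6 and 32.9 CPM with romidepsin in EV cells, and at 24.1, 25.6 and 23.5 CPM and 28.3, 27.5 and 28.1 CPM in NRF2 cells. Each romidepsin group lay above its DMSO group, by 1.15-fold in EV cells (log2 0.20 ± 0.06, edgeR adjusted p = 0.0073) and 1.14-fold in NRF2 cells (log2 0.19 ± 0.06, edgeR adjusted p = 0.011). The call in EV cells was lost without EV DMSO replicate 3 (log2 0.14, edgeR adjusted p = 0.064), and that in NRF2 cells without NRF2 romidepsin replicate 1 (log2 0.17, edgeR adjusted p = 0.054). Irf2 was at 44.9, 45.1 and 44.7 CPM with DMSO and at 35.3, 37.9 and 37.7 CPM with romidepsin in EV cells. Irf1, at chr11:53770014-53778374, shares 135 exon bases with the antisense gene Gm17334, which had a group mean of at most 0.0202 CPM. In NRF2 cells Irf2, at chr8:46739732-46847458, was at 40.4, 38.0 and 52.0 CPM with DMSO, the last from the library that stood apart, and at 34.2, 37.4 and 35.4 CPM with romidepsin. Irf2 was lower in every romidepsin library than in any DMSO library of the same line, as were 39.9% and 39.0% of all genes. It fell by 1.22-fold in EV cells (log2 -0.28 ± 0.09, edgeR adjusted p = 0.0083) and 1.21-fold in NRF2 cells (log2 -0.27 ± 0.09, edgeR adjusted p = 0.0099). On leaving out each library in turn, the Irf2 change in NRF2 cells ran from log2 -0.37 to -0.15. The call was kept each time (edgeR adjusted p up to 0.031).

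The scaling mattered for these small changes. Upper-quartile or library-size scaling moved the median log2 romidepsin change of all genes from 0.01 to between 0.12 and 0.15, and the Irf2 call was then lost, with log2 changes of -0.17 and -0.16 in EV cells and -0.16 and -0.13 in NRF2 cells (edgeR adjusted p from 0.097 to 0.18). Irf3, the constitutive IRF that starts interferon production, was at 49.2, 47.1 and 46.6 CPM with DMSO and 49.8, 51.2 and 54.5 CPM with romidepsin in EV cells, where the ranges did not overlap. Its change there missed the call (log2 0.12 ± 0.06, edgeR adjusted p = 0.056), but it was called higher with RLE size factors (log2 0.15, edgeR adjusted p = 0.019) and under the other scalings (log2 0.23 and 0.24). The call was also made with a filter of 1 CPM in at least 3 samples, with DESeq2, with the groups fitted alone, and without EV romidepsin replicate 1 or any 1 of the NRF2 DMSO libraries (adjusted p from 0.0095 to 0.047 by those fits). In NRF2 cells Irf3 was at 46.3, 48.8 and 42.7 CPM with DMSO and 48.4, 46.6 and 46.0 CPM with romidepsin, which overlapped (log2 0.03 ± 0.06, edgeR adjusted p = 0.65), and it was called higher there with upper-quartile (log2 0.14, edgeR adjusted p = 0.035) and library-size scaling (log2 0.17, edgeR adjusted p = 0.012). Irf3, at chr7:44997648-45002848, shares 88 exon bases with the antisense gene Bcl2l12.

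**Figure D2:**
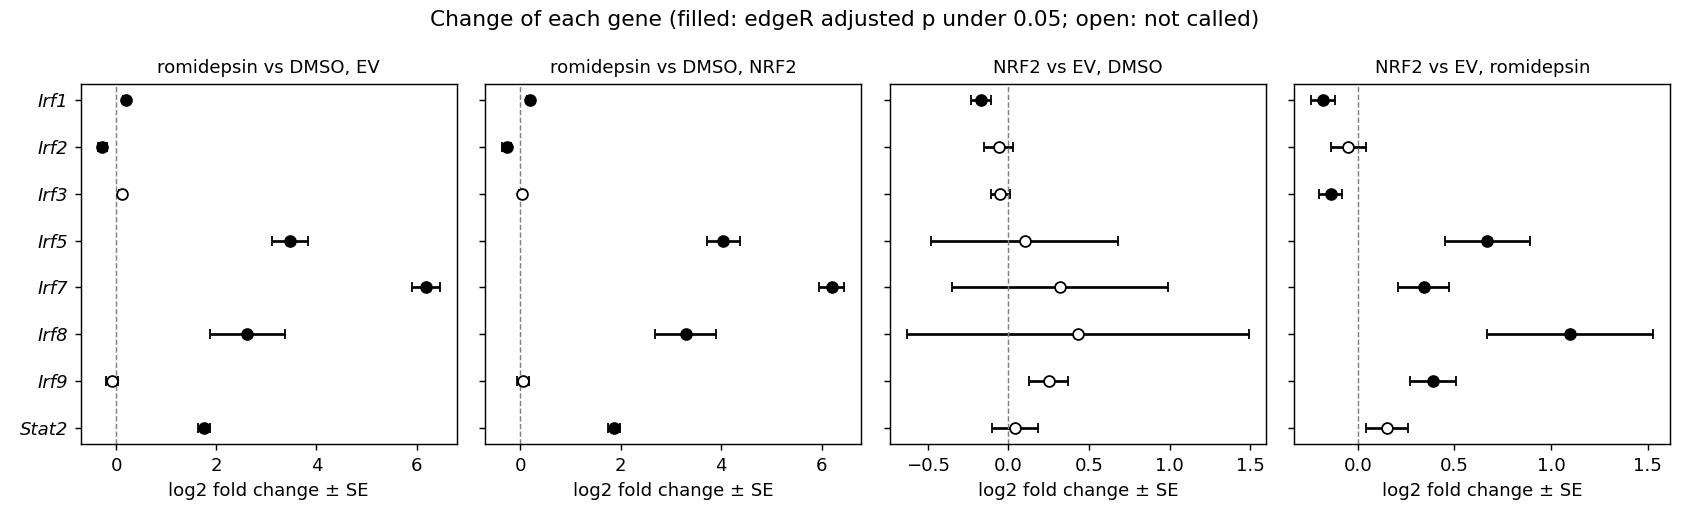
Log2 fold change of each member with its SE in the 4 pairwise comparisons, where filled points passed an adjusted p of 0.05 and the horizontal range of the NRF2 panels is narrower than that of the romidepsin panels. Irf7 stands at 6.18 and 6.20 in the romidepsin panels, and the calls between NRF2 and EV cells lie between -0.18 and 1.10.

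The makeup of the IRF transcripts shifted accordingly. Summed per kilobase over the 7 IRF members, the level was 28.6 ± 0.864 CPM per kb with DMSO and 32.7 ± 1.14 with romidepsin in EV cells (SD, n = 3), and 27.5 ± 0.642 and 31.7 ± 0.303 in NRF2 cells. Irf3 remained the largest part, at 48.4% and 46.1% of the sum in EV cells and 48.6% and 43.0% in NRF2 cells. Irf7 went from 0.0993% to 7.03% in EV cells and from 0.155% to 9.17% in NRF2 cells, and so passed Irf9, which was at 4.80% and 6.47% with romidepsin. Irf2 went from 21.2% to 15.3% and from 21.3% to 15.2%. Irf5 reached 2.13% and 3.49%, while Irf8 stayed at 0.234% and 0.510%. These shares describe transcripts per kilobase and were not tested.

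**Figure D3:**
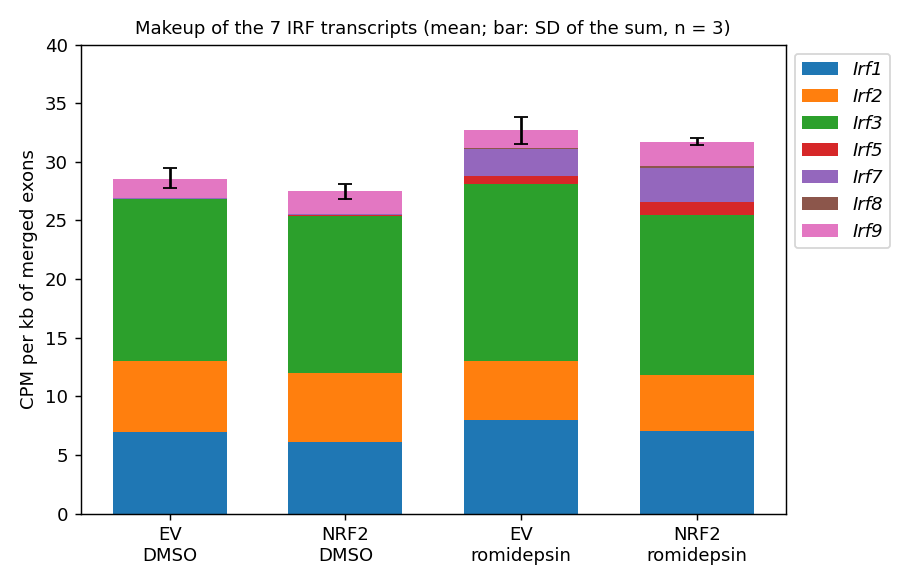
Stacked mean level of the 7 IRF members in each group, in CPM per kb of merged exon, with an error bar for the SD of the summed level over 3 libraries. Irf3, Irf1 and Irf2 make up most of every bar, and the Irf7 part is visible with romidepsin (7.03% and 9.17% of the sum) and is at most 0.155% with DMSO.

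NRF2 overexpression alone gave 1 call among the 8 members, of which Irf5, Irf7 and Irf8 were too low with DMSO to be judged. With DMSO, 36.3% of all genes differed between NRF2 and EV cells by edgeR's test, 19.3% higher and 16.9% lower, and among the members 1 was called, Irf1. Irf1 was 1.13-fold lower in NRF2 cells (log2 -0.17 ± 0.06, edgeR adjusted p = 0.048), with overlapping libraries. That call was lost on leaving out any 1 library other than EV DMSO replicate 3 (edgeR adjusted p from 0.053 to 0.18) and, with all libraries, with no filter or the 1 CPM filter, by DESeq2 and limma-voom, and with the groups fitted alone (adjusted p from 0.055 to 0.15 by those fits). Irf9 was higher in each NRF2 library than in any EV library, as were 21.8% of all genes, but missed the call (log2 0.25 ± 0.12, edgeR adjusted p = 0.12). The log2 difference was 0.12 without NRF2 DMSO replicate 3, the library that stood apart and had the highest Irf9 level (edgeR adjusted p = 0.41). It was 0.34, and called, without NRF2 DMSO replicate 1 (edgeR adjusted p = 0.044). For Irf2 the same library set the value. With all libraries the log2 difference was -0.06 ± 0.09 (edgeR adjusted p = 0.65), and without NRF2 DMSO replicate 3 Irf2 was called lower (log2 -0.20, edgeR adjusted p = 0.006). Irf3 and Stat2 had log2 differences of -0.05 ± 0.06 and 0.04 ± 0.14 (edgeR adjusted p = 0.57 and 0.87). Irf5, Irf7 and Irf8 had log2 differences of 0.10 ± 0.58, 0.32 ± 0.67 and 0.43 ± 1.06, too imprecise at this depth to give a direction.

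With romidepsin, 6 of the 8 members differed between NRF2 and EV cells, 4 higher and 2 lower, where 45.4% of all genes differed, 23.0% higher and 22.4% lower. The members' median log2 difference was 0.25, against 0.00 over all genes. Irf5 was 1.59-fold higher in NRF2 cells (log2 0.67 ± 0.22, edgeR adjusted p = 0.017) and Irf9 1.31-fold higher (log2 0.39 ± 0.12, edgeR adjusted p = 0.014). Irf8 was 2.14-fold higher (log2 1.10 ± 0.43, edgeR adjusted p = 0.046) and Irf7 1.27-fold higher (log2 0.34 ± 0.13, edgeR adjusted p = 0.041). The libraries of NRF2 cells lay above those of EV cells for each of these 4 genes, as they did for 30.8% of all genes. Irf8 passed the filter only with the help of the NRF2 romidepsin libraries, its high group, and was left out with the EV groups alone. Its difference was thus partly fixed by the filter, and its call adds no support. Both the 4 called higher and the members' median include it. Irf1 was 1.13-fold lower (log2 -0.18 ± 0.06, edgeR adjusted p = 0.026) and Irf3 1.10-fold lower (log2 -0.14 ± 0.06, edgeR adjusted p = 0.048), with their NRF2 libraries below all EV libraries, as for 30.4% of all genes. Irf2 and Stat2 were not called (log2 -0.05 ± 0.09 and 0.15 ± 0.11, edgeR adjusted p = 0.69 and 0.26).

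These differences rested on single libraries to different degrees. The Irf9 call was lost without EV romidepsin replicate 1 (log2 0.30, edgeR adjusted p = 0.08) and kept without any 1 of the other 11 libraries. The Irf7 and Irf8 calls were lost on leaving out any 1 of the 6 romidepsin libraries (edgeR adjusted p from 0.08 to 0.12 for Irf7 and from 0.064 to 0.17 for Irf8), and the Irf8 call also without EV DMSO replicate 2 (0.064) or NRF2 DMSO replicate 1 (0.06). The Irf5 call was lost without replicate 1 or 2 of either romidepsin group (edgeR adjusted p from 0.056 to 0.11). The Irf1 call was lost without EV romidepsin replicate 1 or 3 or NRF2 romidepsin replicate 2 or 3 (edgeR adjusted p from 0.055 to 0.099). The Irf3 call was lost without replicate 2 or 3 of EV DMSO, EV romidepsin or NRF2 romidepsin (edgeR adjusted p from 0.056 to 0.2). The Irf7 call was also lost with library-size scaling and with no filter (edgeR adjusted p = 0.051 and 0.057), the Irf8 call in those fits and with DESeq2 (0.077) and limma-voom (0.073), and the Irf3 call with DESeq2 (0.071). No member reversed direction in this comparison under any setting run.

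Whether romidepsin acted differently in the 2 lines was tested with the interaction. By edgeR's test 15.8% of all genes passed, 5.53% with a more positive and 10.2% with a more negative change in NRF2 cells. None of the 8 members passed, and none had an unadjusted p under 0.05 (lowest 0.25, for Irf3). DESeq2 and limma-voom also called none. The log2 interaction was 0.57 ± 0.62 for Irf5, 0.67 ± 1.17 for Irf8, 0.02 ± 0.68 for Irf7 and 0.12 ± 0.17 for Stat2, so that sizeable differences in the first 3 could not have been seen. The comparisons of NRF2 with EV cells share libraries with the romidepsin comparisons, so that their values for a member are not independent of each other.

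By correlation of log CPM over the 12 libraries, the protein-coding genes most like Irf7 were Sowahc, Hcfc1r1 and Zhx1 (Pearson r = 0.997 each). For Stat2 they were Syngr3 and Slc23a2 (r = 0.995) and Kcnh3 (r = 0.994), and for Irf5 Rsu1, Copb2 and Pkp2 (r from 0.993 to 0.995). The genes most like Irf9 were Synj2bp, Esco1 and Sema6d (r from 0.879 to 0.924). For Irf1 they were Lyrm7, Chmp2b and Klhl8 (r from 0.933 to 0.950), for Irf2 Csk, Zfp607a and Proser1 (r from 0.943 to 0.954), and for Irf3 Tmem175, Rfc4 and Rer1 (r from 0.865 to 0.868). Irf8 was under 1 CPM on average and was not compared. The libraries split by romidepsin and share their groups, so a high r describes that split above all.

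Interferons themselves were scarcely transcribed. Of 21 interferon ligand genes, 16, Ifnb1 among them, had no count in any library, and 1, Ifnz, was tested. Ifnz had 1 and 0 estimated counts in the EV and NRF2 groups with DMSO and 35 and 37 with romidepsin, or 0.548 and 0.562 CPM. The receptors and Janus kinases moved both ways. In each line 4 of 10 rose and 4 fell with romidepsin (median log2 0.05 and -0.02). All genes had similar shares, 39.1% higher and 37.4% lower in EV cells and 40.5% and 39.3% in NRF2 cells. With upper-quartile or library-size scaling 6 of the 10 rose and 4 fell in EV cells. Ifnar2, a chain of the type I interferon receptor, fell from 25.1 ± 1.05 to 13.5 ± 1.20 CPM in EV cells (log2 -0.89 ± 0.08, edgeR adjusted p = 2.5e-08), and Il10rb, a chain of the type III receptor, fell from 21.1 ± 1.22 to 11.6 ± 0.873 CPM (log2 -0.86 ± 0.10, edgeR adjusted p = 3.3e-07). Jak3, the kinase of common gamma chain receptors, fell from 45.2 ± 2.07 to 16.5 ± 1.72 CPM (log2 -1.46 ± 0.08, edgeR adjusted p = 3.0e-11). Tyk2, a kinase of the type I receptor, rose from 36.1 ± 1.18 to 53.6 ± 1.83 CPM (log2 0.57 ± 0.07, edgeR adjusted p = 4.3e-07). Between NRF2 and EV cells, 2 of the 10 were higher with DMSO and 5 were higher and 1 lower with romidepsin. The shares of all genes were 19.3% higher and 16.9% lower with DMSO, and 23.0% and 22.4% with romidepsin. Jak2, a kinase of the interferon gamma receptor, was at 121 ± 10.7 against 66.8 ± 1.77 CPM with DMSO (log2 0.86 ± 0.06, edgeR adjusted p = 4.8e-09).

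The sensors, adaptors and kinases that act above the IRFs had no common direction. Of 19 tested, 6 rose and 8 fell with romidepsin in EV cells and 5 rose and 8 fell in NRF2 cells (median log2 0.05 and -0.07). The split was 9 against 6 and 7 against 7 with upper-quartile or library-size scaling. Of all genes 39.1% rose and 37.4% fell in EV cells, and 40.5% and 39.3% in NRF2 cells. Ticam1, the adaptor TRIF of endosomal sensors, rose from 18.2 ± 1.03 to 62.8 ± 0.250 CPM in EV cells (log2 1.79 ± 0.07, edgeR adjusted p = 3.2e-13). Tbkbp1, which binds the kinase that activates IRF3, rose from 0.603 ± 0.115 to 4.95 ± 0.391 CPM (log2 2.99 ± 0.21, edgeR adjusted p = 4.3e-10). It was under 1 CPM in both DMSO groups, where 66.4% (EV) and 68.2% (NRF2) of tested genes rose. Ddx58, the RNA sensor RIG-I, rose in NRF2 cells from 2.81 ± 0.307 to 9.05 ± 0.506 CPM (log2 1.68 ± 0.12, edgeR adjusted p = 4.2e-10). Cgas, the cytosolic DNA sensor, fell from 17.0 ± 1.22 to 5.57 ± 0.776 CPM in EV cells (log2 -1.61 ± 0.11, edgeR adjusted p = 6.0e-10). Irak1, a kinase below the Toll-like receptors, fell from 138 ± 5.12 to 45.2 ± 0.306 CPM (log2 -1.61 ± 0.05, edgeR adjusted p = 7.0e-15).

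Of the 19 sensors, adaptors and kinases, Sting1, the adaptor that Cgas signals through, had the largest difference between NRF2 and EV cells in both conditions. It was at 15.8 ± 0.387 CPM against 2.58 ± 0.386 CPM in EV cells with DMSO, 6.14-fold higher (log2 2.62 ± 0.13, edgeR adjusted p = 5.9e-11), and at 7.79 ± 0.718 against 1.44 ± 0.319 CPM with romidepsin (log2 2.43 ± 0.15, edgeR adjusted p = 1.8e-09). Cgas was lower in NRF2 cells in both conditions (log2 -0.46 ± 0.11 and -0.43 ± 0.13, edgeR adjusted p = 0.0024 and 0.012). Among the 19 sensors, adaptors and kinases, 2 were higher and 3 lower with DMSO, and 1 was higher and 6 lower with romidepsin. Without NRF2 DMSO replicate 3 the count lower with DMSO was 6. With all libraries, 19.3% of all genes were higher and 16.9% lower with DMSO, and 23.0% and 22.4% with romidepsin.

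Feedback inhibitors and cofactors were likewise divided. Of 18 tested, 7 rose and 8 fell with romidepsin in EV cells and 8 rose and 8 fell in NRF2 cells (median log2 0.12 and 0.07). In EV cells the split was 10 against 8 with upper-quartile or library-size scaling and, of 19 tested, without NRF2 DMSO replicate 3. Shares of all genes were 39.1% higher and 37.4% lower in EV cells, and 40.5% and 39.3% in NRF2 cells. Usp18 and Batf3, which rose in each line, were under 1 CPM in both DMSO groups. There the filter favours a rise, and 66.4% (EV) and 68.2% (NRF2) of tested genes rose. Batf3, a partner of IRF8, was at 0.0633 ± 0.0124 CPM with DMSO and 1.66 ± 0.0846 CPM with romidepsin in EV cells (log2 4.56 ± 0.49, edgeR adjusted p = 1.2e-07). Ptpn1, a phosphatase that acts on Janus kinases, rose from 65.5 ± 1.66 to 147 ± 2.61 CPM (log2 1.17 ± 0.05, edgeR adjusted p = 4.3e-13). Socs3, an inhibitor of cytokine signalling, rose from 30.8 ± 0.798 to 66.3 ± 2.98 CPM (log2 1.11 ± 0.06, edgeR adjusted p = 8.7e-12). Nmi, an interferon-induced partner of STAT proteins, fell from 6.16 ± 0.521 to 2.41 ± 0.304 CPM (log2 -1.35 ± 0.17, edgeR adjusted p = 1.1e-06). Between NRF2 and EV cells, 4 were higher and 2 lower with DMSO and 3 higher and 2 lower with romidepsin. Genes at large were 19.3% higher and 16.9% lower with DMSO, and 23.0% and 22.4% with romidepsin.

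The genes that ISGF3 is known to switch on had no common direction. Of 36 such genes, 2 had no count in any library and 21 were tested. With romidepsin 9 rose and 7 fell in EV cells and 9 rose and 8 fell in NRF2 cells (median log2 0.12 and 0.49), beside 39.1% and 37.4%, and 40.5% and 39.3%, of all genes. Their summed level was 417 to 435 CPM with DMSO and 368 to 381 CPM with romidepsin in EV cells, and 398 to 428 against 383 to 389 CPM in NRF2 cells. Much of that sum was Samhd1, which limits nucleotide pools and fell from 224 ± 4.43 to 167 ± 0.963 CPM in EV cells (log2 -0.43 ± 0.04, edgeR adjusted p = 5.2e-08), a gene chosen here after its value was seen. Xaf1, a proapoptotic interferon target, rose from 1.07 ± 0.326 to 4.16 ± 0.0613 CPM in EV cells (log2 1.93 ± 0.19, edgeR adjusted p = 5.1e-08). Parp9 and its partner Dtx3l, which act together in ubiquitination, fell, from 8.83 ± 0.279 to 2.50 ± 0.320 CPM (log2 -1.82 ± 0.17, edgeR adjusted p = 2.0e-08) and from 8.11 ± 1.26 to 2.01 ± 0.546 CPM (log2 -1.99 ± 0.19, edgeR adjusted p = 3.7e-08). Ifi27, a mitochondrial interferon target, rose in NRF2 cells from 1.53 ± 0.326 to 4.45 ± 0.453 CPM (log2 1.52 ± 0.21, edgeR adjusted p = 2.9e-06). Isg15, Mx1 and Oas3, counted among the rises in EV cells, were under 1 CPM in both DMSO groups, where the filter favours a rise.

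Oasl1, which restrains Irf7 translation in mice, differed between the lines before treatment. It was at 0.710 ± 0.299 CPM in EV cells and 4.34 ± 0.428 CPM in NRF2 cells with DMSO (log2 2.58 ± 0.23, edgeR adjusted p = 1.2e-07), and at 3.47 ± 0.628 and 6.19 ± 0.613 CPM with romidepsin (log2 0.83 ± 0.17, edgeR adjusted p = 6.3e-04). Ifit2, an antiviral RNA-binding protein, was lower in NRF2 cells in both conditions, at 8.94 ± 1.37 against 16.4 ± 0.323 CPM with DMSO (log2 -0.89 ± 0.11, edgeR adjusted p = 3.9e-06) and 7.04 ± 0.784 against 14.8 ± 1.02 CPM with romidepsin (log2 -1.06 ± 0.11, edgeR adjusted p = 6.1e-07). Of the 21 tested ISGF3 targets, 3 were higher and 6 lower in NRF2 cells with DMSO, and 5 higher and 3 lower with romidepsin. For all genes the shares were 19.3% and 16.9% with DMSO, and 23.0% and 22.4% with romidepsin.

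Of 25 targets of IRF1 and the interferon gamma response 13 were tested, and with romidepsin 9 rose and 2 fell in each line, with median log2 changes of 0.90 and 1.21. Rises made up 39.1% and falls 37.4% of all genes in EV cells, and 40.5% and 39.3% in NRF2 cells. Of the 13, 6 were under 1 CPM in both DMSO groups, and all 6 rose in each line, where a rise was partly fixed by the filter and 66.4% (EV) and 68.2% (NRF2) of all such low genes rose. Of the other 7, 3 rose (Tapbp, B2m and Cd274) and 2 fell (Psmb10 and Irgm1) in each line, genes that are named here after their values were seen. Nlrc5, the transactivator of class I antigen presentation, rose from 0.415 ± 0.258 to 5.34 ± 0.926 CPM in EV cells (log2 3.59 ± 0.29, edgeR adjusted p = 4.3e-09). Tap2, a subunit of the peptide transporter, rose from 0.827 ± 0.110 to 4.48 ± 0.182 CPM (log2 2.45 ± 0.21, edgeR adjusted p = 6.9e-09). Cxcl10, a chemokine induced by interferon, was at 0.156 ± 0.0707 CPM with DMSO and 4.25 ± 0.446 CPM with romidepsin in EV cells (log2 4.80 ± 0.33, edgeR adjusted p = 3.1e-10). Cd74, the invariant chain of class II molecules, was at 0.0692 ± 0.0784 and 1.76 ± 0.523 CPM (log2 4.35 ± 0.48, edgeR adjusted p = 1.6e-07). Psmb10, an immunoproteasome subunit, fell, from 30.6 ± 1.39 to 11.7 ± 0.0752 CPM (log2 -1.39 ± 0.12, edgeR adjusted p = 2.8e-08). Between NRF2 and EV cells 2 of the 13 were higher and 2 lower with DMSO, beside 19.3% and 16.9% of all genes. With romidepsin 6 were higher and 2 lower, beside 23.0% and 22.4% of all genes. Upper-quartile or library-size scaling gave 4 higher and 2 lower with romidepsin. Psme2, a proteasome activator subunit, was among those higher with romidepsin (log2 0.67 ± 0.10, edgeR adjusted p = 4.5e-05).

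**Figure D4:**
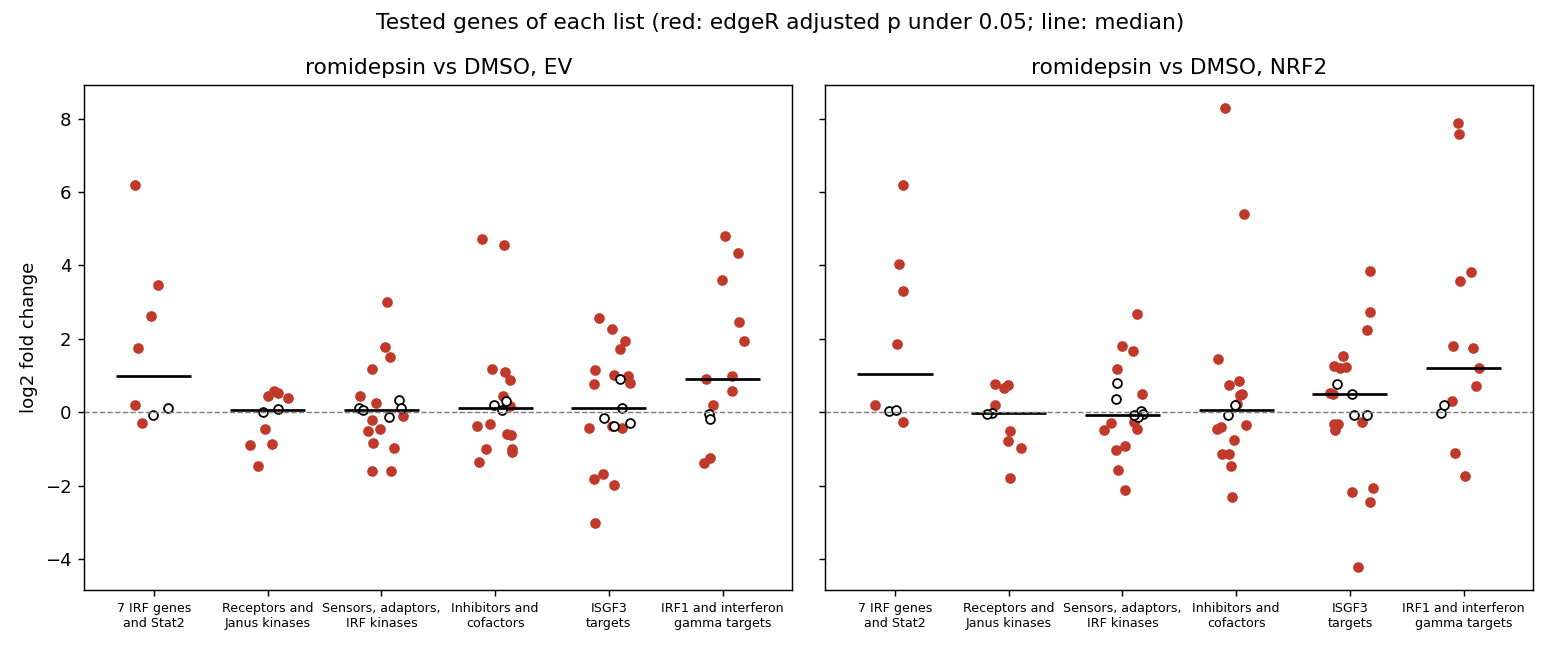
Log2 fold change with romidepsin of each tested gene of the interferon pathway lists, in EV and NRF2 cells, with filled points where the adjusted p was under 0.05. The IRF1 and interferon gamma targets have medians of 0.90 and 1.21, and every list has genes on both sides of 0.

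Markers of immune cells, in which Irf5, Irf7 and Irf8 are best known, moved with the same treatment, as did markers of other cells. The 19 immune markers summed to 11.5 to 14.4 CPM in EV cells and 14.8 to 15.6 CPM in NRF2 cells with DMSO, and to 54.6 to 59.8 and 76.8 to 81.6 CPM with romidepsin. Of these 19, 6 were tested, and 5 rose and 1, Cd14, fell in each line. Cd68, a lysosomal protein of macrophages that other cells also make, rose from 3.27 ± 0.636 to 49.6 ± 2.36 CPM in EV cells and so made up most of the sum. The others that rose were low: Csf1r went from 0.0197 to 0.437 CPM, Flt3 from 0.199 to 1.57 CPM, Lyz2 from 0.0435 to 1.94 CPM and Ptprc, the pan-leukocyte CD45, from 0.259 to 0.549 CPM in EV cells. These 4 were under 1 CPM in both DMSO groups, where the filter favours a rise and 66.4% (EV) and 68.2% (NRF2) of tested genes rose. Of 8 lung epithelial markers tested, 7 rose and 1 fell in each line (median log2 1.27 and 1.06). Epcam, Cldn3 and Cldn4, among those that rose, were also under 1 CPM in both DMSO groups. Their log2 changes were 6.55, 4.60 and 3.24 in EV cells. The keratins Krt7, Krt8, Krt18 and Krt19 rose there by log2 0.55 to 1.73, and Cdh1 fell. Of 3 stromal and endothelial markers tested, 2 rose in EV cells and 3 in NRF2 cells (median log2 1.83 and 1.70), and that list of 8 summed to 6.75 to 11.3 CPM with DMSO and 8.10 to 11.3 CPM with romidepsin in EV cells, and to 5.71 to 6.54 and 11.5 to 14.3 CPM in NRF2 cells. Kdr, which rose in each line, was likewise under 1 CPM in both DMSO groups. Among the immune markers, Nkg7 and Tyrobp had no count in any library, and Adgre1, Cd3e, Fcgr1 and Itgax had group means of at most 0.0570 CPM. The part of other cells in the Irf5, Irf7 and Irf8 values was not tested beyond these levels. In bulk RNA, more cells of a type and more RNA per cell cannot be told apart.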

How the data were processed

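Per the labels' protocols, RNA was taken with Trizol, enriched for poly-A and made into TruSeq libraries. Per the submitters' processing notes, bcl2fastq 2.19, kallisto 0.44.0, DESeq2 (no version given) and the build GRCm38 were used. The authors deposited kallisto estimated counts per gene symbol, already rounded to whole numbers. Their table of normalised values was not used. Of the 35013 genes, 12331 had no count. Estimated counts depend on how reads shared between overlapping or similar genes were divided, and the strand setting is not given in the sources used here.

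The counts were filtered with edgeR's default on the 4 groups, which left 13502 genes, and tested with the two-sided quasi-likelihood test of edgeR 4.0.16 (R 4.3.3, TMM factors, robust, prior count 0.125) on all 12 libraries at once, so that the groups share 1 estimate of spread. The model had a coefficient for each group, which left 8 residual degrees of freedom. P-values were adjusted by Benjamini-Hochberg over all tested genes and called under 0.05. There were 4 pairwise comparisons and the interaction. SEs were taken as the size of the unshrunk log2 change over the root of F. The fits were run on simulated data with 2-fold changes in 200 genes. From 80.7% (interaction) to 87.2% (romidepsin against DMSO) of them were recovered. The percentage false ran from 2.31 (NRF2 against EV with romidepsin) to 5.36 (interaction). That setting does not speak to smaller changes. Positions, exon lengths and overlaps are from GENCODE M21 and promoters from RefSeq (GRCm38.p6), joined by symbol, with all 8 members matched.

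All members are named. For romidepsin against DMSO the text names up to 4 called genes of each pathway list, the most changed of those averaging 1 CPM or more. The largest called change against the majority is named too. For NRF2 against EV fewer are named, and not always the most changed. Ifih1 (log2 -0.68 in both conditions) and Cd74 (log2 1.22 with romidepsin) changed more than the named Cgas and Psme2. The 3 most similar protein-coding genes are given for members of at least 1 CPM. The members and lists were chosen with earlier results of these data known, and the list counts under other scalings and without NRF2 DMSO replicate 3 were added after seeing the data. The alternatives run were library-size, RLE and upper-quartile scaling, testing without a filter, 1 CPM in at least 3 samples, DESeq2 1.42.0, limma-voom (limma 3.58.1), the groups alone, the replicate number as a block, an adjusted p under 0.01, and leaving out each library.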

Additional observations from a re-analysis of the deposited data

Results flagged for a closer look

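None of the 8 members passed the test of a difference between the lines in the romidepsin change, which for Irf5, Irf7 and Irf8 could not have seen sizeable differences. The same interaction test, adjusted over all 13502 genes, passed for 12 of the 71 genes of the pathway lists with at least 1 CPM on average. Of all tested genes 15.8% passed, a share that also covers genes under 1 CPM and so is not at the same threshold. Whether the lists held more such genes than others was not tested. Values are log2 interactions ± SE, positive where the romidepsin change was more positive in NRF2 cells, and adjusted p-values are edgeR's.

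Oasl1, which restrains Irf7 translation in mice, rose by 2.27 in EV cells and 0.51 in NRF2 cells, where it was already higher with DMSO (-1.76 ± 0.30, adjusted p = 6.1e-04). Irak1 fell more in NRF2 cells (-2.12 against -1.61), with an interaction of -0.52 ± 0.07 (adjusted p = 6.6e-05). Irak4, its partner kinase, went from 0.25 to -0.27, also an interaction of -0.52 (± 0.13, adjusted p = 0.01). Jak2 rose in EV cells alone (0.38 against -0.04, interaction -0.42 ± 0.08, adjusted p = 0.0023). Socs3 rose less in NRF2 cells (-0.36 ± 0.08, adjusted p = 0.0063) and Nmi fell more (-0.95 ± 0.27, adjusted p = 0.021). The interaction was positive for Tap2 (1.11 ± 0.35, adjusted p = 0.036), Tapbp (0.32 ± 0.09, adjusted p = 0.021), Ifngr2 (0.31 ± 0.08, adjusted p = 0.016), Ptpn1 (0.27 ± 0.07, adjusted p = 0.012) and Pias4, a SUMO ligase of the pathway (0.30 ± 0.09, adjusted p = 0.029). For Cxcl10 it was 3.09 ± 1.13 (adjusted p = 0.045), a value that rests on 9 estimated counts in EV and 1 in NRF2 cells with DMSO.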

How the results depend on the processing

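The romidepsin calls of Stat2 held in every setting run, while the small changes did not. Irf5 and Irf7 also kept their calls, and Irf8 in every setting that tested it (with the groups alone it was not tested in EV cells). Irf5, Irf7 and Irf8 passed the filter through the romidepsin libraries alone, so that their kept calls add no support. The cause of each shift below was not tested. The number of members called lower with romidepsin was 0 in EV and 0 in NRF2 cells under upper-quartile and library-size scaling, where Irf2 lost its call. For NRF2 against EV with DMSO, the number called lower was 0 with no filter, the 1 CPM filter, DESeq2, limma-voom, the groups alone, the replicate block and an adjusted p under 0.01. With romidepsin, the number called higher was 2 with library size alone, no filter and the replicate block, and 0 under 0.01. The number called lower was 1 with DESeq2 and the replicate block, and 0 under 0.01. Same-numbered libraries did not deviate together (18 pairs, r from -0.18 to 0.09, and 2 of 12 libraries correlated best with their own number), so the block carries no pairing.

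Leaving out each library in turn gave 0 to 1 members higher and 0 to 1 lower for NRF2 against EV with DMSO, 0 to 4 higher and 0 to 2 lower with romidepsin, 4 to 6 higher and 1 lower with romidepsin in EV cells, and 4 to 5 higher and 1 lower in NRF2 cells. Where a log2 value reversed, it had not been called. Irf9 with romidepsin in EV cells was 0.03 with upper-quartile and 0.04 with library-size scaling, and the Irf1 interaction was 0.01 with the latter. Over the left-out libraries, the NRF2 difference with DMSO ranged from -0.20 to 0.04 for Irf2, -0.08 to 0.01 for Irf3, -0.45 to 0.43 for Irf5, -0.76 to 0.73 for Irf7, -0.31 to 2.01 for Irf8 and -0.10 to 0.15 for Stat2. The romidepsin change in NRF2 cells ranged from -0.04 to 0.07 for Irf3 and -0.04 to 0.17 for Irf9. The interaction ranged from -0.06 to 0.05 for Irf1, -0.10 to 0.13 for Irf2, -0.39 to 1.09 for Irf7 and -0.91 to 1.40 for Irf8. A group left with 2 libraries was fitted with the spread of the others. Depth limits Irf5, Irf7 and Irf8 with DMSO, at 5 to 12 counts per group.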
